A study of Mus musculus with 12 samples.

Results

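The complement system was followed in injured mouse muscle through 9 of its genes, found by name among the 54532 gene IDs of the deposited tables. These genes were chosen with earlier results of these data known, and were kept in 3 groups by role. The C1q chains C1qa, C1qb and C1qc encode the recognition molecule of the classical pathway. C3, C4b, C1ra and Serping1 encode other secreted components, namely the central component C3, the component C4, the protease C1r and the C1 inhibitor. C3ar1 and C5ar1 encode the leukocyte receptors for the fragments C3a and C5a.

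Complement is a cascade of secreted proteins that tags damaged cells and microbes for removal and releases small fragments that attract leukocytes. In the classical pathway C1q binds its target and activates the proteases C1r and C1s, which cleave C4 and C2 to form the enzyme that cleaves C3, while the C1 inhibitor holds these proteases in check. Most plasma complement proteins are made by the liver, but C1q is made largely by macrophages and dendritic cells, and injured muscle is cleared by macrophages before its fibres regrow.

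Messenger RNA of the gastrocnemius, a calf muscle, was sequenced from wild-type C57BL/6 mice 6 to 7 months old, in 12 libraries of 4 groups with 3 libraries each. Needling muscle received bupivacaine, an anaesthetic toxic to muscle fibres, and was needled by acupuncture 24 h later. Injury muscle received bupivacaine alone, saline muscle received the vehicle injection, and naive muscle received no injection. The study asked whether needling alters the course of regeneration after this injury. The sources used here give neither the doses nor the time of tissue collection.

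Library totals lay between 16385233 and 27155738 counts. Nothing in the labels ties the replicates to separate animals, and every p-value therefore covers the spread among these libraries alone, which may be technical. The 8 skeletal muscle markers summed to 62060 to 94470 CPM in needling, 87410 to 112900 in injury, 117900 to 133300 in saline and 119400 to 161300 in naive libraries, with none at 0. CPM here and below are counts divided by library size after TMM, edgeR's correction for composition. Naive replicate 1 stood apart from its group in Clu, the gene of the secreted regulator clusterin, at 472.6 CPM against 61.5 to 122.9 CPM in the other 11 libraries, and the members' comparisons with naive muscle are therefore also given without it. The smallest number of reads behind a member was 31 counts, for C3ar1 in a naive library, and the largest was 6785 counts, for C1qb in a needling library.

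Per unit of transcript length, the C1q chains were the most abundant members in needling muscle. In needling muscle C1qb averaged 178.3 ± 32.9 and C1qa 163.8 ± 30.1 FPKM, the authors' fragment counts divided by transcript length and library scale (SD, n = 3). C1qc, the third chain, averaged 71.2 ± 14.2 FPKM there and was followed by Serping1 at 37.2 ± 6.59, C3 at 24.95 ± 3.94 and C3ar1 at 13.2 ± 3.44 FPKM (SD, n = 3). C5ar1, C1ra and C4b closed the order with 10.3 ± 4.12, 6.67 ± 0.57 and 5.54 ± 2.11 FPKM (SD, n = 3). Neighbours in this order whose libraries overlapped were C1qb with C1qa, C3ar1 with C5ar1, and C1ra with C4b. In injury muscle C1qb, at 82.9 ± 20.7, and C1qa, at 79.55 ± 12.01 FPKM, also came first, but Serping1, at 38.6 ± 8.10, and C1qc, at 37.4 ± 6.15 FPKM, overlapped (SD, n = 3).

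The order differed in muscle without bupivacaine. Serping1 had the highest mean in saline muscle, at 38.2 ± 2.33 FPKM, and in naive muscle, at 25.7 ± 6.23 FPKM (SD, n = 3), overlapping the next gene, C1qa, in both groups. C1qa averaged 36.3 ± 10.7 FPKM in saline and 16.1 ± 8.35 FPKM in naive muscle (SD, n = 3). The lowest level in both groups was that of C3ar1, at 1.31 ± 0.71 FPKM in saline and 0.59 ± 0.19 FPKM in naive muscle (SD, n = 3), again overlapping the gene above it, C5ar1. The C1q chains together held 80.7 ± 2.97% of the summed FPKM of the 9 members in needling, 69.9 ± 6.03% in injury, 50.6 ± 9.47% in saline and 43.4 ± 5.12% in naive muscle (SD, n = 3).

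**Figure D1:**
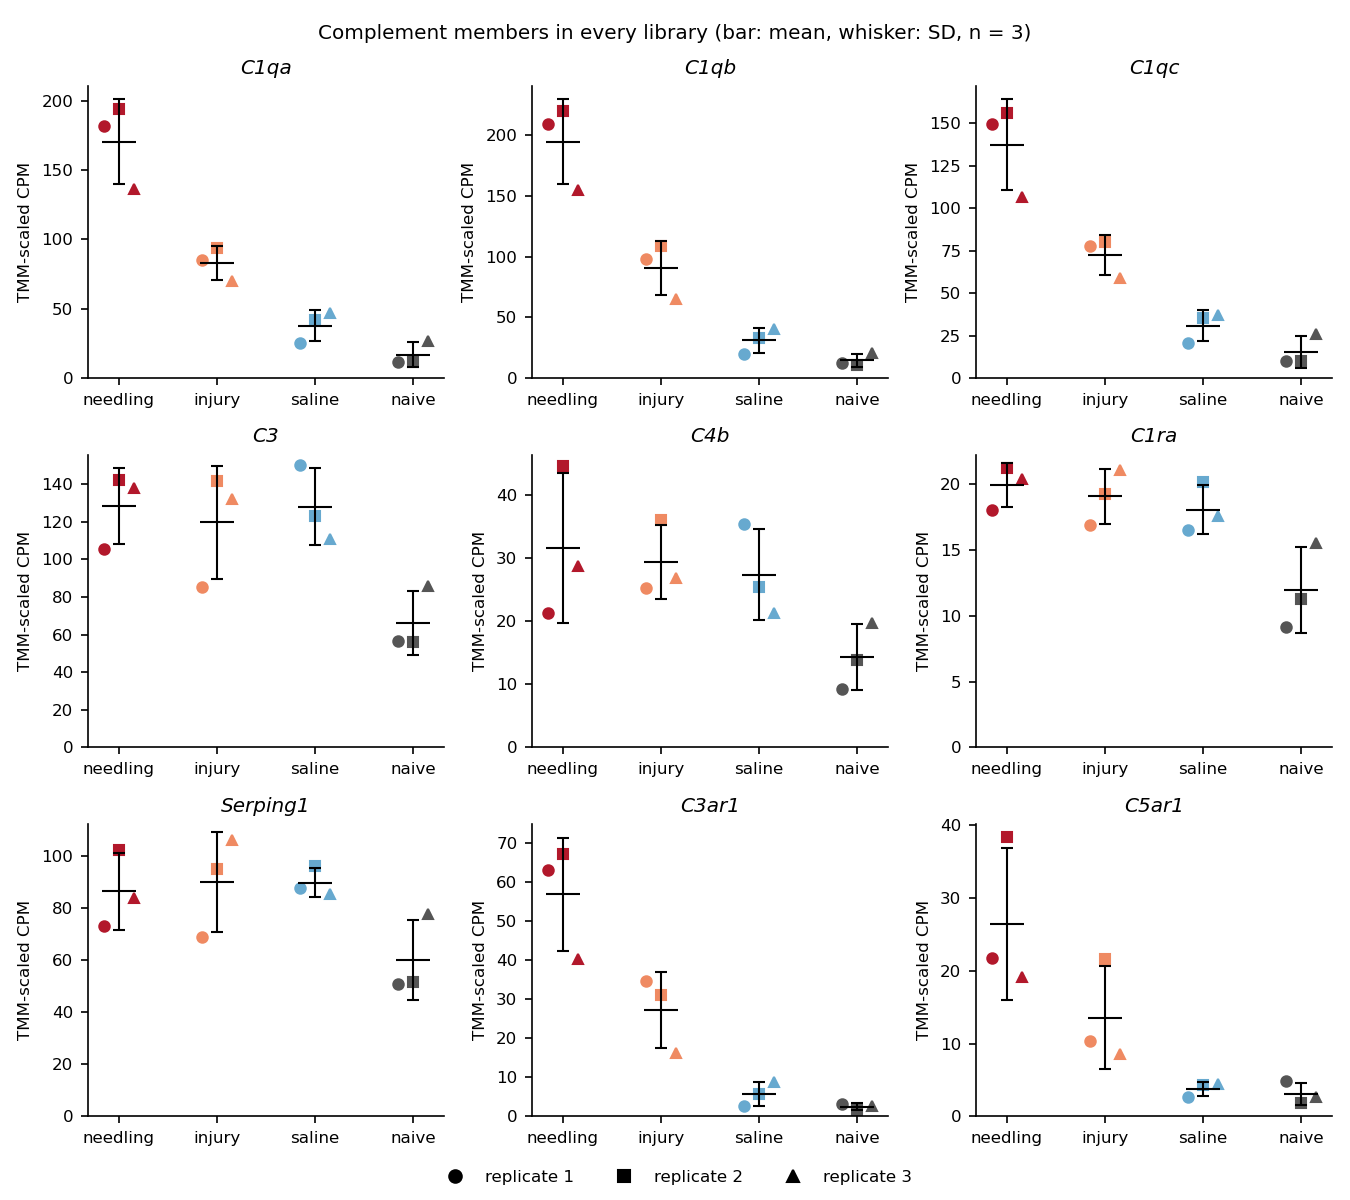
TMM-scaled CPM of each of the 9 members (y axis, from 0) in every library of the needling, injury, saline and naive groups (x axis), with the group mean and SD (n = 3). The C1q chains and both receptors step down from needling through injury to saline, while C3, C4b, C1ra and Serping1 overlap among these 3 groups and have their lowest group means in naive muscle.

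The C1q chains were higher in needling than in saline muscle, by 2.15 to 2.63 on the log2 scale, and each was higher in all 3 needling libraries than in any library of another group. Their genes (ENSMUSG00000036887, ENSMUSG00000036905 and ENSMUSG00000036896) lie next to each other on the minus strand of chromosome 4, at chr4:136895917-136898803 for C1qa, chr4:136880129-136886187 for C1qb and chr4:136889804-136893065 for C1qc on mm10. The promoter windows of the neighbours C1qb (chr4:136886151-136886450) and C1qc (chr4:136892865-136893164, which starts inside the annotated gene) are shown because these genes moved together, on the minus strand from RefSeq on GRCm38.p6, 250 bases before to 50 after the start. Capitals mark CTTCCTC, the reverse complement of the searched GAGGAAG.

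C1qb: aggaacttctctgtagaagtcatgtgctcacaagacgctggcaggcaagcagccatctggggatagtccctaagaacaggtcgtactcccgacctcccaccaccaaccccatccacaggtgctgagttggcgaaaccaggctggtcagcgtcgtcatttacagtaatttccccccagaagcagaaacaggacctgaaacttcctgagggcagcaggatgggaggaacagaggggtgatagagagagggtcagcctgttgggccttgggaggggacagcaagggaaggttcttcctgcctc

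C1qc: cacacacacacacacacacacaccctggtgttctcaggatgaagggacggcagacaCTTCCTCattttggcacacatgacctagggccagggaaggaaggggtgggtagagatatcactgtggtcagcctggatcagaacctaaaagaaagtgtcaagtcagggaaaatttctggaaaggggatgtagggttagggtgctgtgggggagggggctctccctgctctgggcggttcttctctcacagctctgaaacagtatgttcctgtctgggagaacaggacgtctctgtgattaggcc

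GAGGAAG was searched on both strands as a site of the type bound by the myeloid factor PU.1, and was held by 13.6% of 32851 RefSeq promoter windows of the same length. Of the 6 members with a window, C1qc alone held it, beginning at base -194 relative to the start. The match is a description of these letters and no evidence of binding. The absence from C1qb says only that the full searched string is not in its window, and shorter forms were not searched.

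C1qa measured 182, 194 and 136 CPM in needling replicates 1 to 3, 85.0, 94.1 and 69.8 CPM in injury, 25.5, 41.9 and 46.8 CPM in saline, and 11.9, 11.6 and 27.3 CPM in naive replicates. C1qb measured 209, 219 and 154 CPM in needling, 97.6, 108 and 65.4 CPM in injury, 20.3, 33.2 and 40.7 CPM in saline, and 12.8, 11.1 and 20.5 CPM in naive replicates. C1qc measured 149.7, 156 and 107 CPM in needling, 78.1, 80.2 and 59.0 CPM in injury, 20.7, 35.3 and 37.2 CPM in saline, and 10.2, 10.02 and 26.3 CPM in naive replicates. For all 3 chains the needling libraries lay above the injury libraries and these above the saline libraries, while saline and naive libraries overlapped through naive replicate 3. Of all genes, 15.6% lay higher in needling than in injury libraries without overlap, and no such share was computed for injury against saline muscle.

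Against saline, C1qa was higher in needling muscle by 2.16 ± 0.34 (log2, SE; edgeR adjusted p = 0.000998), C1qb by 2.63 ± 0.31 (adjusted p = 0.000172) and C1qc by 2.15 ± 0.38 (adjusted p = 0.00225). In injury against saline muscle C1qb passed, at 1.52 ± 0.30 (edgeR adjusted p = 0.0202). C1qa and C1qc did not pass there, with log2 differences of 1.12 ± 0.33 (edgeR adjusted p = 0.0950) and 1.22 ± 0.37 (adjusted p = 0.107), although both groups of libraries were apart. The 3 chains were also higher in needling than in naive muscle, by 3.14 to 3.71 on the log2 scale, and in injury than in naive muscle, by 2.22 to 2.61. In whole muscle, more cells of a type and more RNA per cell cannot be told apart.

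The proportions among the chains were taken within each library. The ratio of C1qb to C1qa in FPKM was 1.10, 1.08 and 1.08 in needling replicates 1 to 3, 1.10, 1.10 and 0.895 in injury, 0.759, 0.757 and 0.832 in saline, and 1.03, 0.916 and 0.718 in naive replicates. Needling and injury libraries all lay above the saline libraries, and naive libraries spanned nearly the whole range. In FPKM, C1qc held a smaller share of the summed chains, at 17.2 ± 0.29% in needling, 18.8 ± 0.76% in injury, 19.8 ± 0.78% in saline and 20.5 ± 2.46% in naive muscle (SD, n = 3). By CPM, which is not divided by transcript length, its share was 27.4 ± 0.40%, 29.6 ± 1.06%, 31.0 ± 1.07% and 31.8 ± 3.31% in these groups (SD, n = 3). The size of the C1qc share thus depended on the length behind the FPKM. The ratio of C1qc to C1qa in FPKM was 0.434 ± 0.010 in needling, 0.470 ± 0.022 in injury, 0.439 ± 0.013 in saline and 0.483 ± 0.032 in naive muscle (SD, n = 3). The needling libraries, at 0.423 to 0.444, all lay below the injury libraries, at 0.455 to 0.495, and overlapped with the saline libraries.

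The proportions of C1q to its partners also differed between groups. The mean C1q chain over C1ra, the protease gene of the same complex, was 24.5, 21.9 and 15.97 in FPKM in needling replicates 1 to 3, 12.5, 11.96 and 7.44 in injury, 3.25, 4.39 and 5.76 in saline, and 3.09, 2.34 and 3.76 in naive replicates. Needling libraries lay above injury libraries and these above saline libraries, while saline and naive libraries overlapped. C3 over C1qb in FPKM averaged 0.144 ± 0.042 in needling, 0.296 ± 0.123 in injury, 0.976 ± 0.525 in saline and 0.965 ± 0.094 in naive muscle (SD, n = 3).

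**Figure D2:**
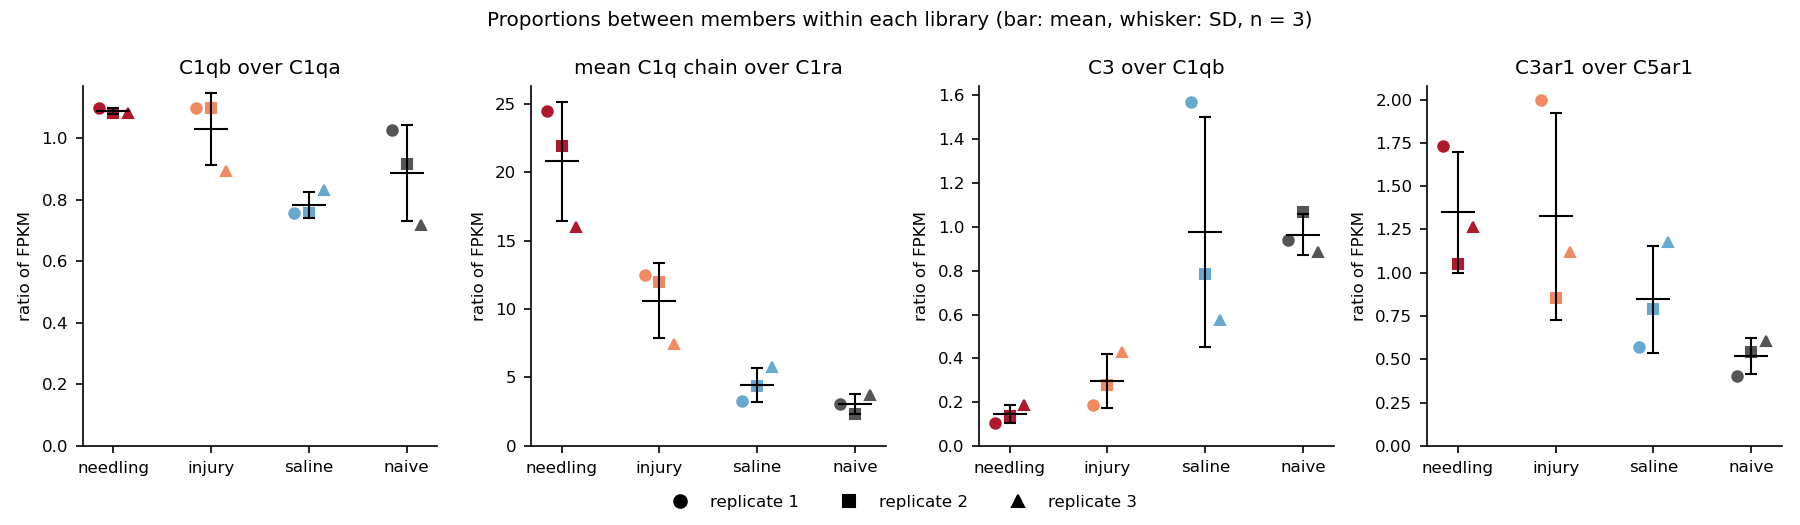
Ratios of FPKM between members (y axes, from 0) within each library of the 4 groups (x axis), with the group mean and SD (n = 3). C1qb over C1qa lies between 1.08 and 1.10 in needling and between 0.757 and 0.832 in saline libraries, and C3 over C1qb is at most 0.189 in needling libraries and at least 0.575 in saline libraries.

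Macrophage markers moved with the C1q chains. All 10 genes of the marker list (Adgre1, Cd68, Csf1r, Cd163, Mrc1, Itgam, Lyz2, Mertk, Fcgr1 and Cd14) were called higher in needling than in saline muscle, beside 18.5% of all genes. In injury against saline muscle 5 of 10 were called higher, beside 4.19% of all genes, a share that fell to 0% without injury replicate 1. None of the 10 markers was at 0 in any group. Their summed level was 1457 to 2009 CPM in needling, 618 to 1019 CPM in injury, 166.5 to 364.5 CPM in saline and 83.0 to 153 CPM in naive libraries. The part of macrophage number in the C1q differences was not tested.

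The C1q chains were also set against these markers within each library. Their mean log2 CPM minus that of the 10 markers was 1.54 ± 0.08 in needling, 1.45 ± 0.07 in injury, 1.65 ± 0.06 in saline and 1.35 ± 0.73 in naive muscle (SD, n = 3). The wide spread of the naive group came with naive replicate 1, at 0.51, against 1.73 and 1.80 in naive replicates 2 and 3. The distance between groups depended on the marker. Minus Adgre1 alone, C1qa averaged 1.44 in needling, 1.57 in injury, 2.235 in saline and 2.49 in naive muscle. These means were 1.63, 1.67, 1.95 and 2.36 for C1qb, and 1.13, 1.37, 1.94 and 2.33 for C1qc (log2 CPM, n = 3). For each chain all needling and injury libraries lay below all saline libraries in this difference.

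The other secreted components were not called between the injected groups. None of C3, C4b, C1ra and Serping1 passed in needling or injury against saline muscle, and their log2 differences there lay between -0.10 and 0.21. In naive muscle each had its lowest group mean.

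C3 (ENSMUSG00000024164, chr17:57203970-57228136, minus strand) measured 105, 142 and 138 CPM in needling replicates 1 to 3, 85.3, 141 and 132 CPM in injury, 150.4, 123 and 111 CPM in saline, and 56.6, 56.0 and 85.7 CPM in naive replicates. The needling, injury and saline libraries overlapped, and injury replicate 1 fell just below the highest naive library. The log2 difference was 0.0057 ± 0.22 in needling against saline muscle (SE; edgeR adjusted p = 0.987), -0.10 ± 0.22 in injury against saline (adjusted p = 0.873) and 0.96 ± 0.22 in needling against naive muscle (adjusted p = 0.00386). The microRNA gene Mir6978 lies within C3 on the same strand and held 0 counts.

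C4b (ENSMUSG00000073418, chr17:34728380-34743882, minus strand) measured 21.4, 44.6 and 28.8 CPM in needling, 25.2, 36.1 and 26.9 CPM in injury, 35.4, 25.4 and 21.4 CPM in saline, and 9.31, 13.9 and 19.7 CPM in naive replicates 1 to 3. The first 3 groups overlapped, and all of their libraries lay above the naive ones. C4b was higher in needling than in naive muscle by 1.14 ± 0.32 (log2, SE; edgeR adjusted p = 0.0149), and without needling replicate 2 by 0.81 (edgeR adjusted p = 0.0691, in a range of 0.000866 to 0.0691 over all settings). Its near copy C4a shares 96.1% of 5367 aligned transcript bases, and reads could be split between them. C4b held 7227 counts over the 12 libraries and C4a 66.

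C1ra (ENSMUSG00000055172, chr6:124512405-124523443, plus strand) measured 18.0, 21.2 and 20.4 CPM in needling, 16.9, 19.2 and 21.1 CPM in injury, 16.5, 20.2 and 17.6 CPM in saline, and 9.13, 11.3 and 15.5 CPM in naive replicates 1 to 3. Its libraries kept a narrow range outside naive muscle, and again all lay above the naive ones. In needling against naive muscle C1ra was higher by 0.73 ± 0.17 (log2, SE; edgeR adjusted p = 0.00404). C1rb, which shares 98.0% of 2428 aligned transcript bases with C1ra, held 5 counts over the 12 libraries against 4785 for C1ra.

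Serping1 (ENSMUSG00000023224, chr2:84765387-84775444, minus strand) measured 73.0, 102 and 84.0 CPM in needling, 68.8, 94.9 and 106 CPM in injury, 87.7, 96.1 and 85.5 CPM in saline, and 51.0, 51.6 and 77.8 CPM in naive replicates 1 to 3. Needling and injury libraries overlapped with naive replicate 3, and the saline libraries did not. Serping1 was the member with the smallest difference between needling and naive muscle, at 0.52 ± 0.19 (log2, SE; edgeR adjusted p = 0.0420). It did not pass without naive replicate 1 (0.44, edgeR adjusted p = 0.120) or naive replicate 2 (0.43, adjusted p = 0.143). Nor did it pass without needling replicate 2 (0.38, edgeR adjusted p = 0.172) or needling replicate 3 (0.54, adjusted p = 0.0699), in a range of 0.00671 to 0.172 over all settings.

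The promoter windows of C3 (chr17:57228087-57228386, minus strand) and C1ra (chr6:124512371-124512670, plus strand, its RefSeq start inside the annotated gene) are shown because they alone among the 6 windows held C/EBP-type or gamma-activated letters, the kinds of site through which liver and inflammatory signals are known to act on complement genes. Capitals mark the matches.

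C3: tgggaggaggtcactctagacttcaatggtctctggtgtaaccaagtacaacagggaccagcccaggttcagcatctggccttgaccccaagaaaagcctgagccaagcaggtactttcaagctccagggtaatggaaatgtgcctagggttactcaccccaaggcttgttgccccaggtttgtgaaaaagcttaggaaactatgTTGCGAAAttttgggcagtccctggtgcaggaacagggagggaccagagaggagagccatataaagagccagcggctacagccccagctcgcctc

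C1ra: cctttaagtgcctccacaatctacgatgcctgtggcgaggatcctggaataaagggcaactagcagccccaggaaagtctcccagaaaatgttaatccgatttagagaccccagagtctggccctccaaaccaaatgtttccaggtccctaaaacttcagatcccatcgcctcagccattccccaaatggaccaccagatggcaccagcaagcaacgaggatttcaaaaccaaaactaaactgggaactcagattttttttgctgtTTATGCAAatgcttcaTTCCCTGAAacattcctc

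TTGCNNAA, searched on both strands as a C/EBP-type site, matched C3 at base -45 and, in reverse, C1ra at base 17, and 10.8% of all windows held it. TTCNNNGAA, the gamma-activated site, matched C1ra at base 33, and 8.30% of all windows held it. The interferon-stimulated element was found in 0 of the 6 windows and in 3.44% of all windows. These are matches of letters in the window and say nothing of the factors.

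Hepatocyte markers were at or near 0 throughout. Of the 6 listed, Alb, Apoa1, Ahsg, Ttr, Serpina1a and Fgb, none passed the filter on low counts, Fgb was at 0 in every group, and the summed level reached at most 1.03 CPM in any library. The 8 listed genes of fibro-adipogenic progenitors, a connective tissue cell of muscle, summed to 2460 to 3275 CPM in needling, 1670 to 1960 CPM in injury, 1172 to 1461 CPM in saline and 716.7 to 974.5 CPM in naive libraries, with none at 0. Of these 8, Ly6a, Col1a1 and Col3a1 were called higher in needling than in saline muscle, beside 18.5% of all genes. Col1a1 and Col3a1 were called higher in injury than in saline muscle, beside 4.19% of all genes. Relative to this list, the mean log2 CPM of C3, C4b, C1ra and Serping1 stood at -1.60 ± 0.07 in needling, -1.33 ± 0.23 in injury, -1.10 ± 0.21 in saline and -1.21 ± 0.18 in naive muscle (SD, n = 3). The order depended on the marker. Minus Pdgfra of this list alone, C3 averaged 1.42 in needling, 1.60 in injury, 1.75 in saline and 1.28 in naive muscle. In the same order the means were -0.65, -0.41, -0.49 and -0.96 for C4b, -1.25, -1.02, -1.06 and -1.18 for C1ra, and 0.85, 1.20, 1.25 and 1.14 for Serping1 (log2 CPM, n = 3). The part of fibro-adipogenic progenitors in the levels of the 4 components was not tested.

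**Figure D3:**
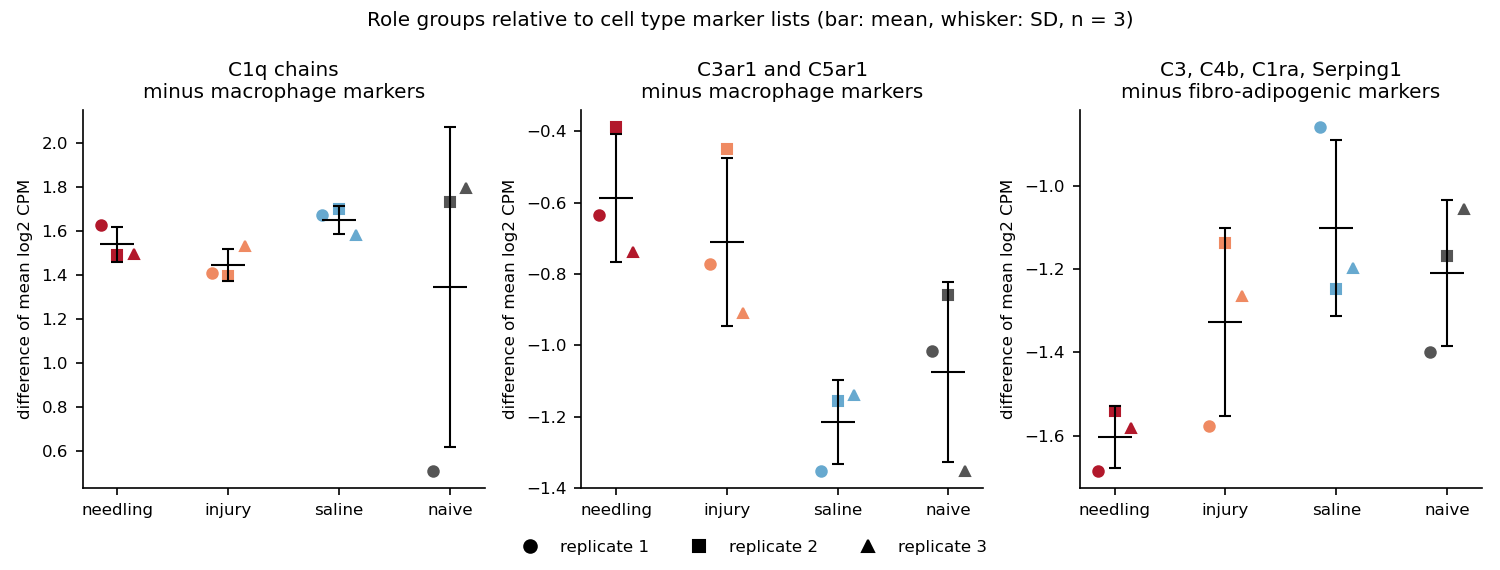
Mean log2 CPM of each role group minus that of a marker list (y axes, which do not start at 0) in every library of the 4 groups (x axis), with the mean and SD (n = 3). C1q chains minus macrophage markers lies between 1.40 and 1.80 in 11 libraries and at 0.51 in naive replicate 1, and the mean of both receptors minus that of the macrophage markers is higher in all needling and injury libraries than in saline libraries.

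The receptors C3ar1 and C5ar1 had the largest estimated fold differences between needling and saline muscle among the members, at 3.31 and 2.78 on the log2 scale. The estimate of C5ar1, with an SE of 0.45, was not set apart from that of C1qb, at 2.63 ± 0.31 (SE). C3ar1 (ENSMUSG00000040552, chr6:122847138-122856161, minus strand) measured 63.1, 67.4 and 40.4 CPM in needling replicates 1 to 3, 34.7, 31.0 and 16.2 CPM in injury, 2.57, 5.73 and 8.73 CPM in saline, and 3.25, 1.65 and 2.71 CPM in naive replicates. C5ar1 (ENSMUSG00000049130, chr7:16246743-16259540, minus strand) measured 21.7, 38.3 and 19.1 CPM in needling, 10.4, 21.6 and 8.63 CPM in injury, 2.69, 4.32 and 4.41 CPM in saline, and 4.81, 1.81 and 2.65 CPM in naive replicates. Every library with bupivacaine lay above every library without it for both receptors, and the share of all genes that lay so was not computed. Needling lay above injury in all libraries for C3ar1, while injury replicate 2 reached into the needling range for C5ar1.

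C3ar1 was higher in needling than in saline muscle by 3.31 ± 0.45 (log2, SE; edgeR adjusted p = 0.000478) and in injury than in saline muscle by 2.25 ± 0.43 (adjusted p = 0.0219). C5ar1 was higher by 2.78 ± 0.45 (edgeR adjusted p = 0.00126) in needling and by 1.82 ± 0.45 (adjusted p = 0.0481) in injury muscle, both against saline. The ratio of C3ar1 to C5ar1 in FPKM averaged 1.35 ± 0.35 in needling, 1.33 ± 0.60 in injury, 0.847 ± 0.310 in saline and 0.519 ± 0.105 in naive muscle (SD, n = 3). Its needling and injury libraries overlapped with saline libraries and lay above the naive ones.

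Relative to the mean of the macrophage markers, the mean of both receptors stood higher in needling and injury than in saline libraries. The mean log2 CPM of C3ar1 and C5ar1 minus that of the 10 markers was -0.59 ± 0.18 in needling, -0.71 ± 0.24 in injury, -1.21 ± 0.12 in saline and -1.08 ± 0.25 in naive muscle (SD, n = 3). Needling libraries lay at -0.74 to -0.39 and injury libraries at -0.91 to -0.45, above the saline libraries at -1.35 to -1.14. The naive libraries, at -1.35 to -0.86, overlapped with the injury and saline libraries. The order depended on the receptor and the marker, since C5ar1 minus Adgre1 alone was -1.30 ± 0.46 in needling, -1.15 ± 0.63 in injury and -1.04 ± 0.27 in saline muscle (log2 CPM, SD, n = 3), with overlapping libraries. In naive muscle this difference was 0.08 ± 0.51, and all naive libraries lay above those of the other groups. C3ar1 minus Adgre1 was -0.16 ± 0.22 in needling, -0.09 ± 0.15 in injury, -0.61 ± 0.25 in saline and -0.14 ± 0.21 in naive muscle (log2 CPM, SD, n = 3).

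Neutrophils also carry both receptors. Of 8 neutrophil markers 3 passed the filter, with a summed level of 1.74 to 3.84 CPM in needling, 0.695 to 2.31 CPM in injury, 0.337 to 0.706 CPM in saline and 0.107 to 6.63 CPM in naive libraries. Ly6g, a defining neutrophil gene, was at 0 in needling, injury and saline muscle. Of the 3 tested, Mmp8, a neutrophil collagenase gene, was called higher in needling than in saline muscle (2.73 ± 0.77, log2, SE; edgeR adjusted p = 0.0177) and than in naive muscle (2.75 ± 0.77, adjusted p = 0.0105), and S100a8 and S100a9 were called in no comparison. The part of neutrophils in the receptor levels was not tested.

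Counted together, 5 of the 9 members were called higher and 0 lower in needling than in saline muscle, where 18.5% of the 15715 genes tested were called higher and 11.0% lower. The median log2 difference of the 9 members was 2.15, beside -0.04 over all genes tested. In needling against naive muscle 9 of 9 were called higher and 0 lower, beside 23.2% higher and 19.0% lower over all genes. The median there was 3.11 for the members and -0.03 over all genes. Without naive replicate 1 the count was 8, all but Serping1, beside 23.4% of all genes called higher. The log2 differences were then 2.93 to 3.64 for the C1q chains, 4.72 for C3ar1, 3.58 for C5ar1, 0.87 for C3 (edgeR adjusted p = 0.0146), 0.93 for C4b (adjusted p = 0.0429) and 0.59 for C1ra (adjusted p = 0.0116). The comparisons of needling muscle with saline, injury and naive muscle share the needling libraries, as those with saline muscle share the saline libraries, and are not independent of each other.

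In injury against saline muscle 3 of the 9 members, C1qb, C3ar1 and C5ar1, were called higher, where 4.19% of all genes were. This count depended on single libraries. It was 0 without saline replicate 1, saline replicate 2, injury replicate 1 or injury replicate 2, it was 2 without saline replicate 3, and it stayed at 3 without injury replicate 3. Calls over all genes moved too, the share called higher being 0% on leaving out injury replicate 1, 0.464% for injury replicate 2, 6.71% for injury replicate 3, 0.638% for saline replicate 1, 0.983% for saline replicate 2 and 2.59% for saline replicate 3. DESeq2 called 5, the 3 C1q chains and both receptors, where it called higher 6.5% of the 15671 genes it gave an adjusted p. In injury against naive muscle 8 of 9 were called higher, all but Serping1 (0.58 ± 0.19, log2, SE; edgeR adjusted p = 0.0531), beside 12.3% of all genes. That count was 5 without naive replicate 2, beside 7.93% of all genes, and 5 without injury replicate 2, beside 8.44%. It was 7 without naive replicate 1, beside 12.5%, where C4b did not pass (0.86, edgeR adjusted p = 0.103, in a range of 0.00635 to 0.162 over all settings). The other 7 were then higher by 2.04 to 2.57 for the C1q chains, 3.69 for C3ar1, 2.65 for C5ar1, 0.81 for C3 (edgeR adjusted p = 0.0459) and 0.56 for C1ra (adjusted p = 0.0341) on the log2 scale.

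**Figure D4:**
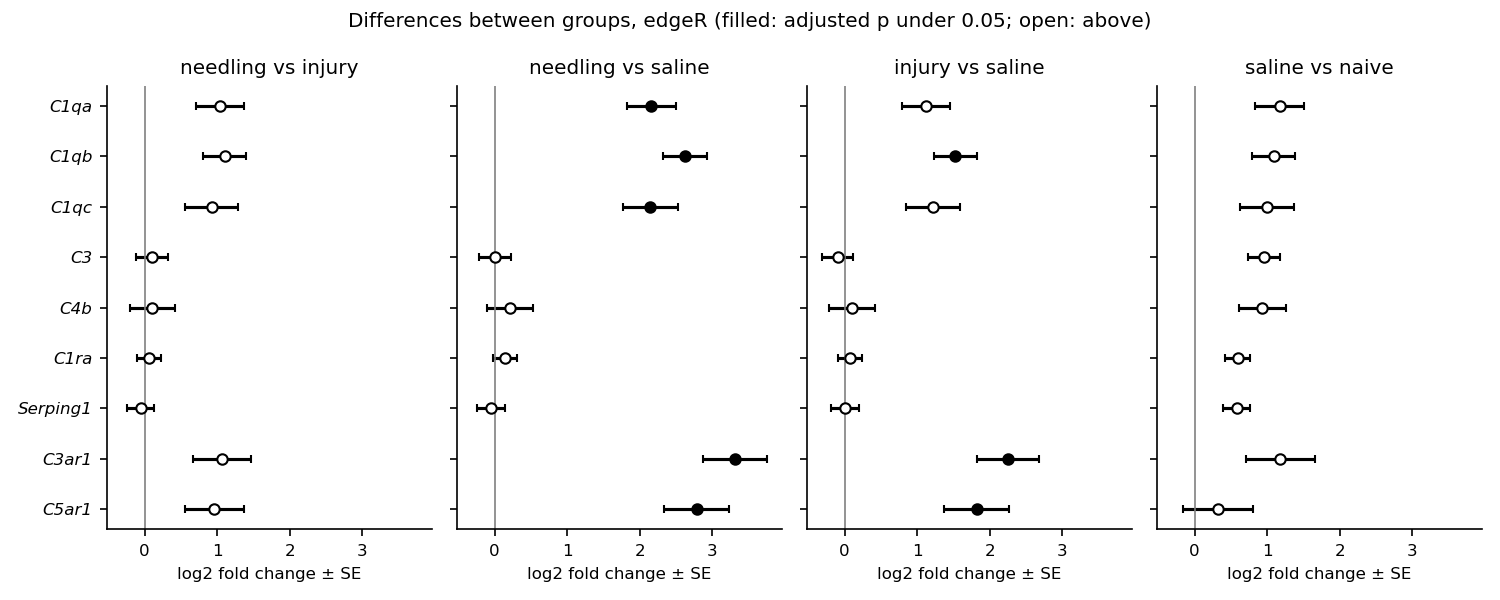
Log2 fold change with its SE (x axis) of the 9 members (y axis) in 4 comparisons, first group over second, from edgeR, with filled points for an adjusted p under 0.05. The C1q chains, C3ar1 and C5ar1 are filled in needling against saline, C1qb, C3ar1 and C5ar1 in injury against saline, and none in the other 2 comparisons.

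Needling muscle had higher estimates than injury muscle for the C1q chains and both receptors, 1.90-fold to 2.15-fold, but the call depended on the model. In the fit of 12 libraries edgeR called 0 of the 9 members, as it did 0.0% of all genes higher, while 5 members, and 16.6% of all genes in either direction, were at an unadjusted p under 0.05. The log2 differences were 1.04 ± 0.33 for C1qa (SE; edgeR adjusted p = 0.154), 1.10 ± 0.29 for C1qb (adjusted p = 0.114) and 0.93 ± 0.36 for C1qc (adjusted p = 0.235). C3ar1 stood at 1.06 ± 0.40 (edgeR adjusted p = 0.218) and C5ar1 at 0.96 ± 0.41 (adjusted p = 0.275). C3, C4b, C1ra and Serping1 lay between -0.06 and 0.10. The C1q chains and C3ar1 did not overlap between the groups, 4 of the 9 members, where 15.6% of all genes lay higher without overlap.

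Needling and injury libraries with the same replicate number deviated together, and a replicate block in a fit of the 6 libraries called 5 of the 9 members higher, where 12.5% of all genes were called higher. The blocked log2 differences were 1.004 ± 0.072 for C1qa, 1.09 ± 0.08 for C1qb and 0.89 ± 0.07 for C1qc (SE; edgeR adjusted p = 0.000261 each). They were 1.07 ± 0.09 for C3ar1 (edgeR adjusted p = 0.000326) and 0.97 ± 0.09 for C5ar1 (adjusted p = 0.000362). DESeq2 without a block called 2 members, C1qa (adjusted p = 0.0301) and C1qb (adjusted p = 0.0125), and limma called 0. DESeq2 called higher 3.96% of the 13234 genes it gave an adjusted p there. The pairing was found in these same libraries and is not given by the labels. A replicate block over 12 libraries called 0 of the 9 members, and 0 of 15715 genes higher. Over all settings the adjusted p of the C1q chains and both receptors ranged from 0.000261 to 0.737.

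Saline against naive muscle gave positive estimates for all 9 members, and edgeR called 0 of them and 0.0% of all genes higher. An unadjusted p under 0.05 was reached by 8 of 9, the exception being C5ar1, and by 11.9% of all genes in either direction. C3 was at 0.95 ± 0.22 (log2, SE; edgeR adjusted p = 0.270), C4b at 0.93 ± 0.32 (adjusted p = 0.349), C1ra at 0.59 ± 0.17 (adjusted p = 0.299) and Serping1 at 0.58 ± 0.19 (adjusted p = 0.323). These 4 secreted components did not overlap between saline and naive libraries, 4 of the 9 members, where 9.53% of all genes lay higher without overlap.

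The C1q chains were at 0.998 to 1.17 in saline against naive muscle on the log2 scale, overlapping through naive replicate 3. Without that library edgeR called 1 member, C1qa, at 1.71 (adjusted p = 0.0463, in a range of 0.0288 to 0.657 over all settings), where 0.0742% of all genes were called higher. DESeq2 called 3 members, C1qa, C1qb and C3, where it called higher 1.05% of the 12626 genes it gave an adjusted p, and limma called 0. Without naive replicate 1 the estimates lay between 0.45 for C1ra and 1.41 for C3ar1, and 0 members were called, where 0% of all genes were called higher.

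A list of 43 other complement genes set the members beside the rest of the pathway, of which 24 passed the filter on low counts. In needling against saline muscle 6 of the 24 were called higher and 4 lower, beside 18.5% and 11.0% of all genes, with a median log2 difference of -0.075, beside -0.04 over all genes. In needling against naive muscle 10 were called higher and 2 lower, beside 23.2% and 19.0% of all genes. In injury against saline muscle 1 was called higher, beside 4.19% of all genes, and in injury against naive muscle 6 were, beside 12.3%, with 0 lower in both. Without naive replicate 1, when 26 passed the filter, 10 were called higher and 4 lower in needling against naive muscle, beside 23.4% of all genes higher. In injury against naive muscle 6 were then called higher and 0 lower, beside 12.5% of all genes higher. In needling against injury and in saline against naive muscle edgeR called 0 of the 24. An unadjusted p under 0.05 was reached there by 6 in needling against injury, beside 16.6% of all genes, and by 3 in saline against naive muscle, beside 11.9%.

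Among initiators, C1s1, the partner protease of C1r, was the most abundant, at 11.9 FPKM in needling, 11.1 in injury, 12.2 in saline and 8.09 FPKM in naive muscle on average. Its ratio to C1ra in FPKM stayed between 1.70 and 2.30 in all 12 libraries. C1s1 was called higher in needling than in naive muscle (0.55 ± 0.17, log2, SE; edgeR adjusted p = 0.0221), and lost the call without naive replicate 1, naive replicate 2 or needling replicate 2 (adjusted p of 0.0652 to 0.0898). Its near copy C1s2 shares 95.9% of 2661 aligned transcript bases and held 24 counts against 9286. C1rl, a C1r-like protease gene next to C1ra, averaged 1.92 CPM in needling and 0.828 CPM in saline muscle (log2 difference 1.25 ± 0.38, SE; edgeR adjusted p = 0.0279), and lost the call without saline replicate 2 or 3 or needling replicate 2 or 3 (adjusted p of 0.0648 to 0.115).

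Fcna, a ficolin gene of the lectin pathway, averaged 8.13 FPKM in needling, 5.96 in injury, 3.79 in saline and 2.19 FPKM in naive muscle, and Colec12, a collectin scavenger receptor gene, 4.67 FPKM in needling, 3.42 in injury, 3.09 in saline and 2.39 FPKM in naive muscle. Both were called higher in needling than in naive muscle, Fcna by 1.87 ± 0.59 (log2, SE; edgeR adjusted p = 0.0272) and Colec12 by 0.95 ± 0.23 (adjusted p = 0.00477). Fcna did not pass without naive replicate 1, naive replicate 2 or needling replicate 2 (adjusted p of 0.0852 to 0.122), and Colec12 was at 0.78 without naive replicate 1 (edgeR adjusted p = 0.0146).

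In the alternative pathway, Cfp, which encodes the positive regulator properdin and is made by leukocytes, measured 30.5, 50.9 and 30.6 CPM in needling, 17.2, 30.2 and 14.9 CPM in injury, 9.24, 11.5 and 12.2 CPM in saline, and 6.38, 4.53 and 7.96 CPM in naive replicates 1 to 3. All libraries with bupivacaine lay above all libraries without it. Cfp was higher in needling than in saline muscle by 1.76 ± 0.30 (log2, SE; edgeR adjusted p = 0.00136) and in injury than in naive muscle by 1.72 ± 0.31 (adjusted p = 0.00313), and there by 1.79 without naive replicate 1 (adjusted p = 0.0110). Cfd, the adipocyte-rich factor D gene, was not called in any comparison and spread widely, at 9.65, 36.8 and 35.4 CPM in needling and 144, 89.7 and 46.1 CPM in saline replicates. C2, which encodes the partner of C4 in the classical pathway, stayed between 0.20 and 0.39 FPKM in the group means.

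Terminal components were scarce, with 2 of 7 listed genes passing the filter. C7, which binds the growing membrane attack complex, measured 6.96, 10.7 and 7.02 CPM in needling and 19.4, 18.9 and 12.9 CPM in saline replicates 1 to 3, all needling libraries lying below all saline libraries. Its log2 difference was -1.05 ± 0.30 (SE; edgeR adjusted p = 0.0209), and it lost the call without saline replicate 1 or 2 or needling replicate 1 or 3 (adjusted p of 0.0618 to 0.0733). C8g, the gene of a C8 subunit, was the other one measured, at 1.13 FPKM in needling and 1.61 FPKM in saline muscle.

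Of the regulators that hold complement in check, 8 passed the filter, and 3 of these were called lower and 0 higher in needling than in saline muscle, beside 11.0% lower and 18.5% higher over all genes. Vtn, the gene of vitronectin, a plasma protein that blocks the membrane attack complex, measured 6.75, 8.71 and 6.59 CPM in needling and 11.9, 13.3 and 10.9 CPM in saline replicates (log2 difference -0.71 ± 0.16, SE; edgeR adjusted p = 0.00589). Cd59a, which encodes the membrane inhibitor of the same complex, measured 29.1, 29.9 and 41.9 CPM in needling, 43.3, 37.7 and 46.8 CPM in injury, 46.0, 51.5 and 47.5 CPM in saline and 51.9, 51.5 and 52.0 CPM in naive replicates 1 to 3. For both genes the needling libraries lay below the saline libraries, and for Cd59a also below the naive libraries. Clu, called in no comparison of the 12 libraries, averaged 111 CPM in needling and 77.0 CPM in saline muscle (log2 difference 0.52 ± 0.68, SE; edgeR adjusted p = 0.601). In needling against naive muscle Clu stood at -0.86 ± 0.68 (SE; edgeR adjusted p = 0.344). Without naive replicate 1 it was called higher there, at 0.76 ± 0.20 (SE; edgeR adjusted p = 0.0100).

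Cd59a fell by 0.52 ± 0.13 on the log2 scale in needling against saline muscle (SE; edgeR adjusted p = 0.0117) and did not pass without needling replicate 1 or 2 (adjusted p of 0.0516 and 0.0582). Its paralog Cd59b, to which reads of Cd59a could be split, averaging 1.51 CPM in needling and 3.19 CPM in saline muscle, fell by 1.10 ± 0.35 (edgeR adjusted p = 0.0331), a call lost on leaving out any of the 6 libraries except needling replicate 3 (adjusted p of 0.0501 to 0.133). Cd55 and Cr1l, genes of membrane regulators that act on the C3-cleaving enzymes, did not pass in any comparison. Skeletal muscle markers fell with Cd59a, 3 of 8 being called lower in needling than in saline muscle, beside 11.0% of all genes, and their part in its level was not tested.

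Of 6 other receptor genes listed 5 passed the filter, and 4 of these, Itgb2, Itgam, Itgax and C5ar2, were called higher in needling than in saline muscle, beside 18.5% of all genes. Itgb2, which encodes the shared chain of the leukocyte receptors CR3 and CR4, averaged 59.4 CPM in needling, 29.9 in injury, 6.96 in saline and 3.60 CPM in naive muscle. It was higher in needling than in saline muscle by 3.08 ± 0.48 (log2, SE; edgeR adjusted p = 0.00116) and in injury than in saline muscle by 2.09 ± 0.46 (adjusted p = 0.0359). The second of these calls was lost on leaving out any saline library or injury replicate 1 or 2 (adjusted p of 0.0608 to 0.131). Its partner chains Itgam and Itgax were higher in needling than in saline muscle by 3.02 ± 0.61 (edgeR adjusted p = 0.00514) and 2.97 ± 0.57 (adjusted p = 0.00343), and Itgam is also on the macrophage marker list.

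C5ar2, the other receptor for C5a, averaged 1.41 CPM in needling and 0.566 CPM in saline muscle (log2 difference 1.29 ± 0.38, SE; edgeR adjusted p = 0.0228) and lost the call without saline replicate 1 or needling replicate 1 or 2 (adjusted p of 0.0583 to 0.0844). Vsig4, the gene of a macrophage receptor for C3 fragments, measured 0.653, 2.10 and 0.775 CPM in needling, 1.60, 1.17 and 1.24 CPM in injury, 0.321, 0.618 and 0.552 CPM in saline, and 0, 0.107 and 0.510 CPM in naive replicates 1 to 3. Against naive muscle it was higher in needling muscle by 2.43 ± 0.68 (edgeR adjusted p = 0.0121) and in injury muscle by 2.58 ± 0.68 (adjusted p = 0.0206). The needling call was lost without naive replicate 2 or needling replicate 2 (adjusted p of 0.0561 and 0.0714), and the injury call without naive replicate 2 or injury replicate 1 (adjusted p of 0.0944 and 0.0625).

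**Figure D5:**
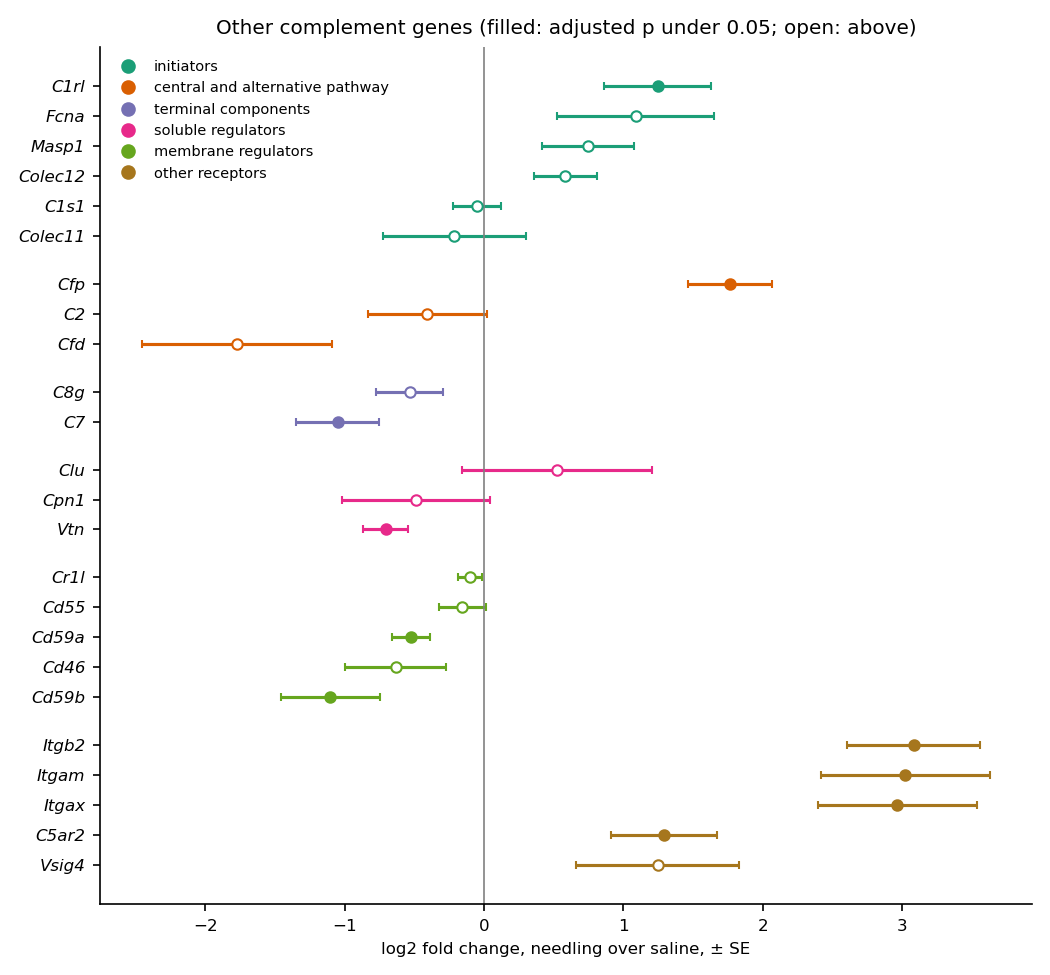
Log2 fold change of needling over saline muscle with its SE (x axis) for the 24 other complement genes that passed the filter (y axis), coloured by role, with filled points for an edgeR adjusted p under 0.05. C1rl, Cfp, C5ar2, Itgam, Itgax and Itgb2 are filled on the higher side and C7, Vtn, Cd59a and Cd59b on the lower side.

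Within each role group the members moved together across libraries. Over the 12 libraries the log2 CPM of each C1q chain correlated with the mean of the other 2 at a Pearson r of 0.991 to 0.997, each of the 4 secreted components with the mean of the other 3 at 0.909 to 0.949, and C3ar1 with C5ar1 at 0.961. These are descriptions over libraries that share groups and depth.

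The genes outside the complement lists whose log2 CPM was most like each role group were found among 13568 protein-coding genes, over the same 12 libraries. For the C1q chains they were Zc3hav1, an antiviral zinc finger gene, Klhl6, Anxa1, the gene of annexin A1, Grn, which encodes progranulin, and Pld4, with a Pearson r of 0.994 to 0.997. For C3ar1 and C5ar1 they were Coro1a, an actin regulator of leukocytes, Ms4a6c, Hmgb2, Fcer1g, the gene of the Fc receptor gamma chain, and Cotl1, at 0.995 to 0.997. For the 4 secreted components they were Igfbp4, an insulin-like growth factor binding protein gene, Bmper, Dnm1, Fbrs and Ntn1, at 0.948 to 0.961.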

How the data were processed

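RNA sequencing of 12 gastrocnemius libraries was analysed from 2 deposited tables. The first holds whole-number counts per gene as the authors deposited them, and the second FPKM values deposited by the authors. Alignment used HISAT2 2.0.5 and mm10, per the submitters' processing notes. The sources used here do not give the counting tool, annotation or filters, so how reads shared by near copies were assigned is unknown. Symbols and coordinates came from GENCODE M21, which matched 54409 of 54532 gene IDs. Dividing counts by FPKM gave 1 constant scale per library over 11810 genes, so both tables carry the same reads.

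The count test was the quasi-likelihood F test of edgeR 4.0.16 (R 4.3.3), run after filterByExpr, which kept 15715 genes, and TMM scaling. A single robust model held the 12 libraries and 4 group means. Genes with a two-sided Benjamini-Hochberg adjusted p under 0.05 over all genes tested were called. Fold changes are on the log2 scale, computed here from the deposited counts, with the group named first over the group named second. CPM compares 1 gene between libraries, and FPKM compares genes. Overlap of libraries is a description, and its share over all genes is given only for needling against injury and saline against naive muscle. Role group scores are means of log2 CPM (prior count 2). Steps were tested on simulated counts.

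Other settings were median-ratio size factors, DESeq2 1.42.0, no filter (30008 genes), limma 3.58.1 on log2(FPKM + 1), the 2 groups alone, the replicate number as a block over 12 libraries or over the 2 groups, each library left out, and edgeR's older dispersion estimate.

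Whether replicate numbers pair libraries was checked by correlating their deviations from group means over all genes tested. Same-numbered needling and injury libraries correlated at 0.238, 0.485 and 0.422, over the minimum of 0.1 for each pair, and no other pair of groups met it. The labels give no origin for this pairing.

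The members, the gene lists and the markers were chosen with earlier results of these data known. One gene of the wider complement list is not reported here and is in none of the counts over that list. Other complement genes were named where called in a comparison or among the most abundant of their role, and for likeness the 5 genes with the highest Pearson r per role group were taken. Promoter windows from RefSeq on GRCm38.p6 covered 6 of the 9 members.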

Additional observations from a re-analysis of the deposited data

How the results depend on the processing

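Needling against saline muscle kept 5 members called in every setting run, leave-one-out included (5 to 5), and needling against naive kept between 7 and 9. Needling against injury, with 0 in the fit of 12 libraries and 0 to 0 on leaving out a library, gave 2 with DESeq2 and 5 with the replicate block in the 2 groups alone, while the block over 12 libraries gave 0. Injury against saline, with 3, gave 0 without the filter, 5 with DESeq2, 0 with the replicate block in the 2 groups alone, 1 with the block over 12 libraries and 0 to 3 on leaving out a library. Injury against naive, with 8, gave 5 to 9 on leaving out a library, where 7.93% to 13.2% of all genes were called higher. Saline against naive, with 0, gave 3 with DESeq2 and 0 to 1 on leaving out a library, where 0% to 0.155% of all genes were called higher. The replicate block changed no other count by over 1.5 times. edgeR's older dispersion estimate, added after seeing the data, left C5ar1 in injury against saline at an adjusted p of 0.0522. The causes were not tested.

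Uncalled log2 estimates near 0 turned sign on leaving out 1 library. Over these, needling against injury ran from -0.091 to 0.24 for C3, -0.23 to 0.32 for C4b, -0.019 to 0.13 for C1ra and -0.22 to 0.052 for Serping1. Needling against saline ran from -0.087 to 0.13 for C3, -0.13 to 0.43 for C4b and -0.19 to 0.056 for Serping1, and C3 was at -0.024 with the block over 12 libraries. Injury against saline ran from -0.23 to 0.096 for C3, -0.072 to 0.36 for C4b and -0.095 to 0.16 for Serping1. Serping1 there was at -0.0074 with limma, -0.014 with the block in the 2 groups and -0.022 with the block over 12 libraries.

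With 3 libraries a group, an uncalled difference does not show equal levels. C3ar1 and C5ar1 rested on 31 to 174 counts per library in saline and naive muscle, which limits the precision of their fold differences.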
